A study of Mus musculus with 6 samples.

Results

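The levels of 7 genes were followed through 6 RNA sequencing libraries of mouse bone marrow: the acute-phase genes Saa3 and Hp, the metalloreductase gene Steap4, the antiprotease genes Wfdc17, Wfdc21 and Slpi, and the arrestin-domain gene Arrdc3. They were taken by name, and all 7 were found among the 28987 genes of the deposited table. The mice were of the C57BL/6 strain and carried CBL and RUNX1 mutations, so every group, controls included, is mutant, and the series describes the cells as a mutant clone of myelodysplastic syndrome. They received Mdivi-1, a small molecule sold as a blocker of the mitochondrial division enzyme Drp1, or its vehicle. Mutant HSCPs (hematopoietic stem and progenitor cells, selected through CD117, the product of Kit, and then sorted) gave 1 library with vehicle and 1 with Mdivi-1. Mutant Ly6G+ myeloid cells, which carry the neutrophil surface protein Ly6G, were sorted into 4 libraries, 2 per treatment. The sources used here do not give how the mutations were introduced, the ages, the dose or the length of treatment. Marrow came from individual mice, but which mouse gave which library is not labelled, and p-values therefore speak only of the spread between these libraries, which may be technical.

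The genes were chosen by their measured Ly6G+ levels under Mdivi-1 and vehicle, and that difference is therefore given as a description, with no test. It is not a list of genes that all stand apart between treatments, since the Ly6G+ arms of Wfdc21 and Slpi overlap on TPM as deposited. The difference between Ly6G+ and HSCP libraries played no stated part in the choice and was tested. Levels are in TPM, a share of all transcripts corrected for gene length, so genes can be compared with each other. Differences are on the log2(TPM + 1) scale, which understates those of low genes such as Steap4 and Saa3.

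As background, the acute-phase response is the change in secreted proteins that follows inflammatory cytokines such as interleukin-6 and interleukin-1, best known in liver but also made by myeloid cells. Serum amyloid A3 (Saa3) is its amyloid family member made outside liver in the mouse, and haptoglobin (Hp) binds free hemoglobin and is stored in neutrophil granules. Steap4 reduces iron and copper ions at membranes and is induced by inflammatory cytokines. Slpi inhibits neutrophil elastase and cathepsin G, and it shares with Wfdc17 and Wfdc21 the WAP domain, a small fold held by disulfide bonds. Arrdc3 is an alpha-arrestin, an adaptor that brings ubiquitin ligases of the NEDD4 family to membrane receptors, among them the beta-2 adrenergic receptor.

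On the mm10 assembly (GENCODE M21) all 7 are protein-coding genes, on 6 chromosomes. Saa3 lies on chromosome 7, 46711998 to 46715700, minus strand. Hp lies on chromosome 8, 109575128 to 109579172, minus strand. Steap4 lies on chromosome 5, 7960457 to 7982213, plus strand. Wfdc17 (83703991 to 83706268) and Wfdc21 (83746940 to 83752642) are neighbours on the plus strand of chromosome 11, with only Wfdc18 between them in a stretch of 48652 bases. Slpi lies on chromosome 2, 164354070 to 164389095, minus strand. Arrdc3 lies on chromosome 13, 80883384 to 80896042, plus strand. Of the 31-base words in their transcripts, 92.4% are found in no other gene for Saa3 and 99.7% to 100% for the other members, so few of their reads had to be shared out between genes.

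RefSeq promoter windows (build GRCm38.p6) were at hand for 5 of the 7 genes. The 250 bases before the start site are shown for Saa3, Steap4, Wfdc17 and Arrdc3, 4 of the genes with higher Ly6G+ levels under Mdivi-1, to set their sequences side by side. Capitals mark matches, on either strand, to TTGCNNAA (a C/EBP core), TTCNNNGAA (a STAT motif), GGGA and TTTCC with 1 base between (a strict NF-kB motif) or GNACA and TGTNC with 3 bases between (a glucocorticoid receptor motif).
Saa3, chr7:46715677-46715926, minus strand: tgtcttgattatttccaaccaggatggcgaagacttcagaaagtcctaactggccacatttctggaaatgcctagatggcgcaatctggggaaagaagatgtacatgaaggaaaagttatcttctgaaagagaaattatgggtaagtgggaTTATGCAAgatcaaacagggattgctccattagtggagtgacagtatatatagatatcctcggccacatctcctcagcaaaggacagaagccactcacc
Steap4, chr5:7960222-7960471, plus strand: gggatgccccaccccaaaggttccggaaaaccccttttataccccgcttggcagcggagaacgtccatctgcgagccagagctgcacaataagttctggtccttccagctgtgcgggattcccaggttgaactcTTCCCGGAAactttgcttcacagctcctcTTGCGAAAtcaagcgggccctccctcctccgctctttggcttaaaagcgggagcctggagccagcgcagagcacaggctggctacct
Wfdc17, chr11:83703806-83704055, plus strand: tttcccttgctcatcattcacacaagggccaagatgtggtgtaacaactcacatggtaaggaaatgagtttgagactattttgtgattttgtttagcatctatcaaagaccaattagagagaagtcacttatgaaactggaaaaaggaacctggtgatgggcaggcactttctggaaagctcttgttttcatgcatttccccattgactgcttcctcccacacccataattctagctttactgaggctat
Arrdc3, chr13:80883134-80883383, plus strand: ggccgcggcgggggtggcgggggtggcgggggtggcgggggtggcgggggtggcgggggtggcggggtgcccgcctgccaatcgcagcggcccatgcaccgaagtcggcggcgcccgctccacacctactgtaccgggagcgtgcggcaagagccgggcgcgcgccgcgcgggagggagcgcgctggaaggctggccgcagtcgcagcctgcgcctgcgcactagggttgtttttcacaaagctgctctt
Saa3 holds 1 C/EBP core, starting 99 bases before the start site. Steap4 holds 1 C/EBP core at 87 bases and 1 STAT motif at 116 bases. Wfdc17 and Arrdc3 hold no match in the bases shown. Slpi, whose window is not shown, holds 1 C/EBP core at 241 bases. Among all 32851 promoter windows of 300 bases, 10.8% hold the C/EBP core, 8.3% the STAT motif, 0.4% the strict NF-kB motif and 0.5% the glucocorticoid receptor motif. A looser NF-kB motif, GGG and CC with 5 bases between, is held by 50.8% of windows and was not marked. RefSeq gives 3 start sites for Arrdc3, and the one at the GENCODE gene start is shown. G and C make up 76.0% of the Arrdc3 bases shown (71.6% and 70.8% at the other start sites), against 41.2% for Wfdc17, 43.2% for Saa3 and 58.4% for Steap4, where the median over all promoters is 52.4%.

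Over the 6 libraries the members spanned more than 3 orders of magnitude, and each kept a broadly similar place in the order of levels. The span was under 3 orders within the Ly6G+ Mdivi-1 libraries, from Steap4 at 12.7 and 11.998 TPM to Wfdc21 at 4864 and 4748 TPM. Wfdc21 was the highest member in every library. It ranked between 13 and 16 among all genes in the Ly6G+ libraries and stood at 117 in both HSCP libraries. In Ly6G+ vehicle libraries it was followed by Slpi, Hp, Wfdc17, Arrdc3, Saa3 and Steap4, and the HSCP vehicle library had the same order. In Ly6G+ Mdivi-1 libraries the order was the same except that Hp stood above Slpi, and in the HSCP Mdivi-1 library it was the same except that Saa3 stood above Arrdc3. Within each Ly6G+ arm, no neighbours in this order overlapped. Together the 7 genes took 0.222% and 0.231% of TPM in the HSCP libraries and 0.617% to 0.7% in the Ly6G+ libraries, most of it from Wfdc21.

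**Figure D1:**
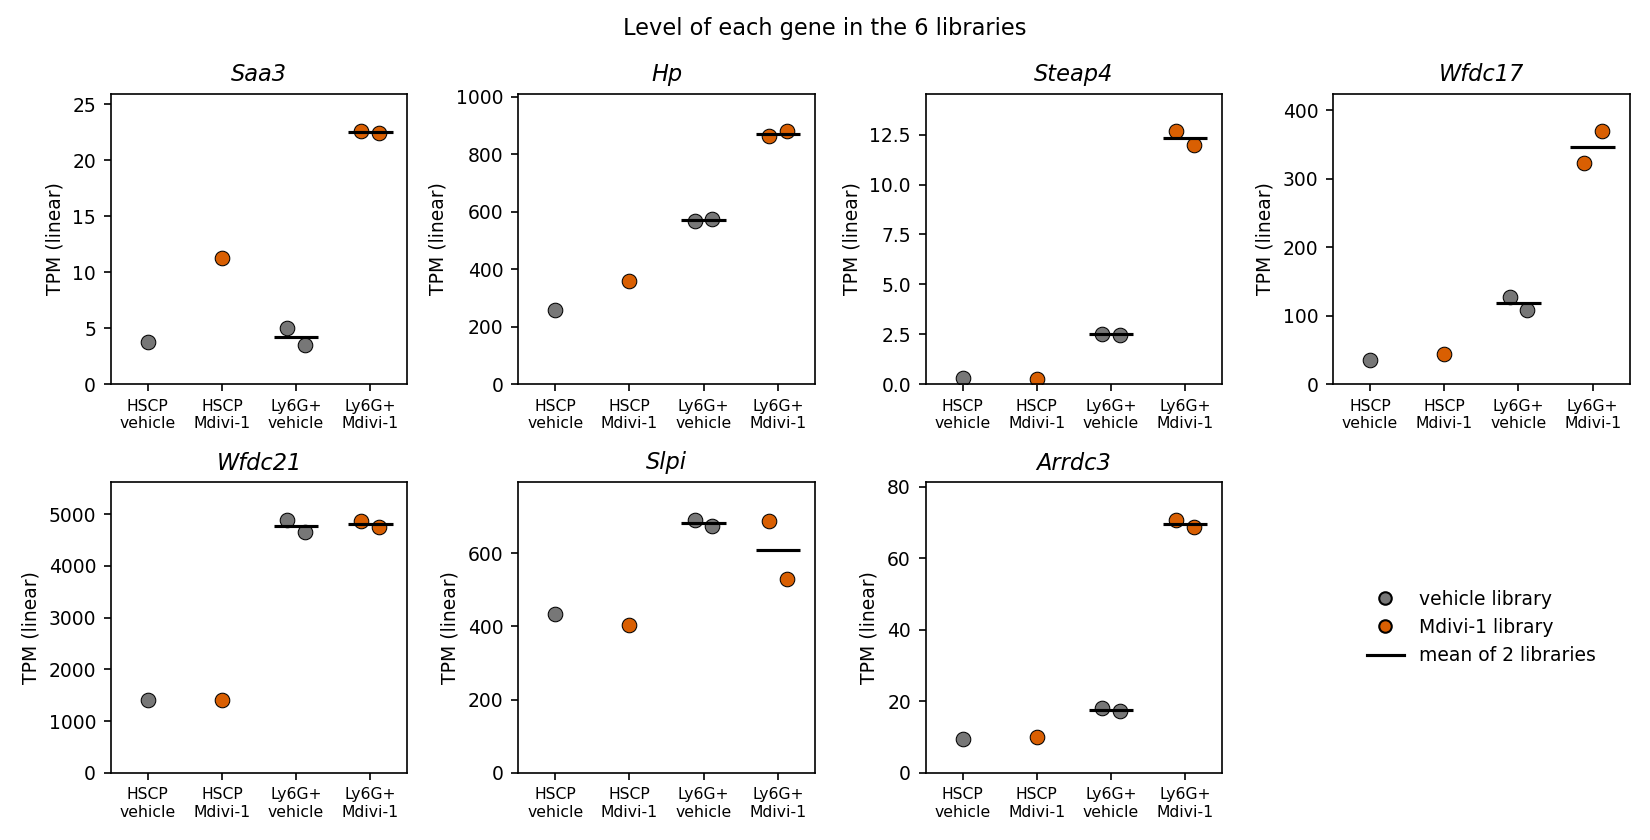
TPM of each gene (linear axis from 0, its own range per panel) in the 4 groups; each point is 1 library and lines are means of 2 Ly6G+ libraries. Saa3, Hp, Steap4, Wfdc17 and Arrdc3 stand higher in both Ly6G+ Mdivi-1 libraries than in both vehicle libraries, while Wfdc21 and Slpi overlap.

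Saa3 was a low transcript with vehicle in both populations and stood higher with Mdivi-1 in both. It was at 5.02 and 3.48 TPM in the Ly6G+ vehicle libraries and at 22.6 and 22.4 TPM in the Ly6G+ Mdivi-1 libraries, 4.25 ± 1.09 against 22.5 ± 0.108 (SD, n = 2 each). The groups do not overlap, and the ratio of means is 5.29 (log2 difference 2.18). In HSCP it was at 3.79 TPM with vehicle and 11.3 TPM with Mdivi-1, a log2 ratio of 1.36 from 1 library each. Among 11775 genes tested in Ly6G+, 6 had a larger upward difference than Saa3. The other serum amyloid A genes of the same chromosome 7 cluster were near or at 0: Saa1 and Saa2 were listed at 0 in every library, and Saa4 did not pass 0.0398 TPM. Only 53.2% and 55.5% of the 31-base words of Saa1 and Saa2 are unique to them.

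Hp was far more abundant than Saa3 and differed less. It was at 567 and 574 TPM in the Ly6G+ vehicle libraries and at 865 and 880 TPM with Mdivi-1, 570 ± 4.91 against 872 ± 10.3 (SD, n = 2 each). Both Mdivi-1 libraries stood above both vehicle libraries, with a ratio of means of 1.53 (log2 difference 0.61). HSCP gave 259 TPM with vehicle and 360 TPM with Mdivi-1 (log2 ratio 0.47). Saa3 and Hp were the members with the largest HSCP ratios, and for both the HSCP ratio had the direction of the Ly6G+ difference. Saa3 amounted to 1.46 and 3.14 per 100 Hp transcripts in HSCP vehicle and Mdivi-1. In Ly6G+ it amounted to 0.886 and 0.606 with vehicle and 2.61 and 2.55 with Mdivi-1.

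Steap4 was the lowest member in every library and stayed under 1 TPM in HSCP. It was at 2.50 and 2.49 TPM in Ly6G+ vehicle libraries and at 12.7 and 11.998 TPM in Ly6G+ Mdivi-1 libraries, 2.49 ± 0.00731 against 12.3 ± 0.467 (SD, n = 2 each). The groups do not overlap, with a ratio of means of 4.95 (log2 difference 1.93). In HSCP it was at 0.309 TPM with vehicle and 0.26 TPM with Mdivi-1. Those HSCP values are too low to compare with each other, since TPM keeps no read totals and the depth is unknown. Its relatives were not seen to follow it: Steap1 was listed at 0 in every library, and Steap2 had a mean of 0.0192 TPM in Ly6G+ vehicle and 0.0362 in Ly6G+ Mdivi-1. Steap3, the ferrireductase of erythroid precursors, had means of 7.02 and 5.29 TPM (log2 difference -0.35, not past the test) and was higher in HSCP, at a mean of 18.8 TPM. These relatives are named as paralogs, outside the rule for named genes.

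**Figure D2:**
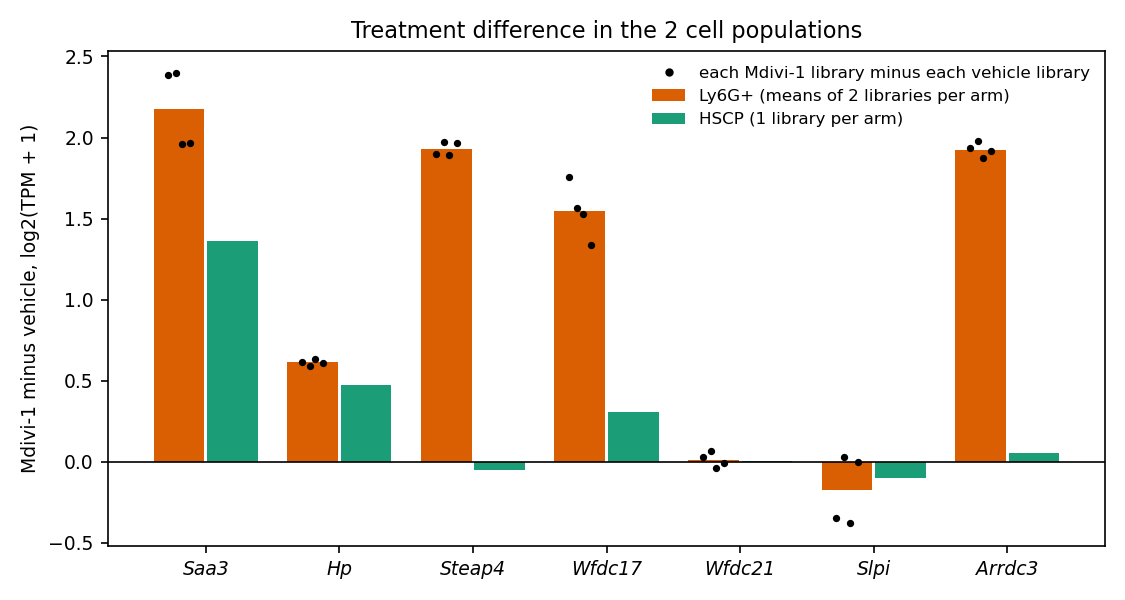
Mdivi-1 minus vehicle on the log2(TPM + 1) scale for each gene in Ly6G+ (bars from means of 2 libraries per arm, dots for the 4 pairings of single libraries) and in HSCP (1 library per arm). Saa3 and Hp stand above 0 in both populations (2.18 and 1.36, 0.61 and 0.47), and Arrdc3 stands at 1.93 in Ly6G+ and 0.054 in HSCP. Steap4 is under 1 TPM in both HSCP libraries, so its HSCP bar lies near 0 on this scale whatever its ratio.

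The WAP domain genes differed from one another. Wfdc17 was at 127 and 109 TPM in the Ly6G+ vehicle libraries and at 324 and 369 TPM with Mdivi-1, 118 ± 13.4 against 346 ± 32.1 (SD, n = 2 each). Its groups do not overlap, with a ratio of means of 2.93 (log2 difference 1.55). The HSCP libraries held 35.6 TPM with vehicle and 44.3 TPM with Mdivi-1 (log2 ratio 0.31). Wfdc21, in the same stretch of chromosome 11, was at 4887 and 4654 TPM with vehicle and at 4864 and 4748 TPM with Mdivi-1 in Ly6G+. The Mdivi-1 libraries fell between the vehicle libraries (4770 ± 165 against 4806 ± 81.6, SD, n = 2 each; log2 difference 0.011). HSCP gave 1401 and 1406 TPM (log2 ratio 0.0050). Per 100 Wfdc21 transcripts there were 2.61 and 2.33 of Wfdc17 in Ly6G+ vehicle, 6.65 and 7.77 in Ly6G+ Mdivi-1, and 2.54 and 3.15 in HSCP vehicle and Mdivi-1. The ratio was thus alike in HSCP and Ly6G+ vehicle libraries, although both genes were more than 3-fold more abundant in the latter.

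Wfdc18, between the other Wfdc genes on chromosome 11 (83709015 to 83711348) and not one of the 7, was at 0.574 and 0.924 TPM with vehicle and at 2.54 and 3.10 TPM with Mdivi-1 in Ly6G+. Its log2 difference was 1.13 (SE 0.196; limma adjusted p = 0.0413). Both vehicle libraries are under 1 TPM, so Wfdc18 entered the fit only through the Mdivi-1 libraries, where it is high, and the call supports nothing by itself. It did not hold with a pseudocount of 0.1 (adjusted p = 0.0502), without an expression filter (adjusted p = 0.0895), with a replicate block (adjusted p = 0.0648), or without either vehicle library (adjusted p = 0.155 and 0.145). HSCP had 0.206 and 0.212 TPM.

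Slpi was the only member with a lower mean under Mdivi-1 in Ly6G+, and its libraries disagreed. It was at 691 and 675 TPM with vehicle and at 689 and 531 TPM with Mdivi-1, 683 ± 11.2 against 610 ± 112 (SD, n = 2 each). The first Mdivi-1 library fell between the vehicle libraries, and without the second the log2 difference went from -0.18 to 0.012. In HSCP it was at 433 TPM with vehicle and 404 TPM with Mdivi-1 (log2 ratio -0.099).

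Arrdc3 was at 18.0 and 17.2 TPM in the Ly6G+ vehicle libraries and at 70.8 and 68.7 TPM with Mdivi-1, 17.6 ± 0.599 against 69.7 ± 1.48 (SD, n = 2 each). The groups do not overlap, with a ratio of means of 3.96 (log2 difference 1.93). HSCP libraries had 9.48 TPM with vehicle and 9.87 TPM with Mdivi-1 (log2 ratio 0.054), so the libraries of that pair were nearly level.

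In Ly6G+, 5 of the 7 genes stood higher in both Mdivi-1 libraries than in both vehicle libraries, 0 stood lower and 2 overlapped. Of all 11775 genes tested, 21.0% stood higher without overlap and 36.7% lower, and 6.70% passed limma in either direction. The median log2 difference was 1.55 over the members and -0.052 over all genes tested. Nothing is read from these counts, since the genes were listed with this difference known. Dividing TPM by median-of-ratios or upper-quartile factors brought the count without overlap to 6, through Wfdc21 (log2 difference 0.096 and 0.065). In HSCP, 5 of 7 were higher in the Mdivi-1 library, with a median log2 ratio of 0.054, against 0.038 over the 7987 genes with a mean of at least 10 TPM. Past 2-fold at that level were 0 members. Of all such genes, 0.388% were past 2-fold upward and 0.538% downward. Saa3 passed 2-fold, but its mean of 7.55 TPM is under that minimum.

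Between populations, 6 of the 7 genes were called higher in Ly6G+ than in HSCP. Steap4 is one of them and reached 1 TPM in Ly6G+ libraries only, so it entered the fit through the population where it is high. The fit holds the Ly6G+ Mdivi-1 libraries, whose levels bore on the choice of the genes. In limma with treatment as a covariate, 22.2% of 12338 genes tested were called higher and 50.3% lower (72.4% in all), so calls were frequent. The same 6 members stood higher in every Ly6G+ library than in both HSCP libraries, as did 23.5% of all genes, while 52.5% stood lower. The median log2 difference was 1.77 over the members and -0.35 over all genes. Median-of-ratios scaling moved the latter to -0.013 and upper-quartile scaling to -0.066, and under both all 7 members were called higher. Wfdc21 went from 1403 ± 3.45 TPM (SD, n = 2, the treatments pooled) in HSCP to 4788 ± 108 in Ly6G+ (SD, n = 4), a log2 difference of 1.77 with SE 0.048 (limma adjusted p = 6.92e-06). Hp went from 310 ± 71.4 to 721 ± 174 TPM (log2 difference 1.20, limma adjusted p = 1.19e-05), and Slpi from 418 ± 20.4 to 646 ± 77.5 TPM (log2 difference 0.62, limma adjusted p = 0.0018). These 3 genes differed to a like degree within vehicle and within Mdivi-1 libraries: 1.77 and 1.77 for Wfdc21, 1.13 and 1.27 for Hp, 0.66 and 0.58 for Slpi.

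For the other 4 genes the population difference was unlike in the 2 treatments, as their Ly6G+ treatment differences imply. The differences over both treatments hold the Ly6G+ Mdivi-1 levels that bore on the choice of these genes. They are larger than those within vehicle libraries, and nothing is read from their p-values. Wfdc17 was 3.31-fold higher in Ly6G+ than in HSCP with vehicle and 7.81-fold higher with Mdivi-1 (log2 differences 1.70 and 2.93; over both, 2.32 with SE 0.286, limma adjusted p = 0.000968). Steap4 differed by 1.42 within vehicle libraries and 3.40 within Mdivi-1 libraries (over both, 2.41 with SE 0.421, limma adjusted p = 0.00256). It entered the fit only through its Ly6G+ libraries, where it is high, and nothing further is read from its p-values here. Arrdc3 differed by 0.83 and 2.70 (over both, 1.77 with SE 0.426, limma adjusted p = 0.0148). The fit over both gives the populations a shared treatment difference, so its SE also holds the gap between their treatment differences. With the groups fitted apart, the SE within each treatment was 0.0864 for Arrdc3 and 0.162 for Steap4. Within vehicle libraries alone, 1 HSCP library stands against 2 of Ly6G+ and is assumed to vary like them. Only differences and SEs are therefore given here within a treatment, with no p-value. Saa3 did not pass (0.53 over both, SE 0.21; limma adjusted p = 0.0595). With vehicle its Ly6G+ libraries, at 5.02 and 3.48 TPM, enclosed the HSCP value of 3.79 (log2 difference 0.12). With Mdivi-1 the Ly6G+ mean was 1.99 times the HSCP value (log2 difference 0.93). The latter difference is given without a test because those Ly6G+ levels chose the gene. Without the HSCP vehicle library the population difference rests on the Mdivi-1 libraries alone, so that fit gave the same 0.93 for Saa3. Without the second Ly6G+ vehicle library the Saa3 difference over both treatments was 0.68. Whether the population difference itself depends on treatment was not tested, because that contrast contains the one used to list the genes.

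**Figure D3:**
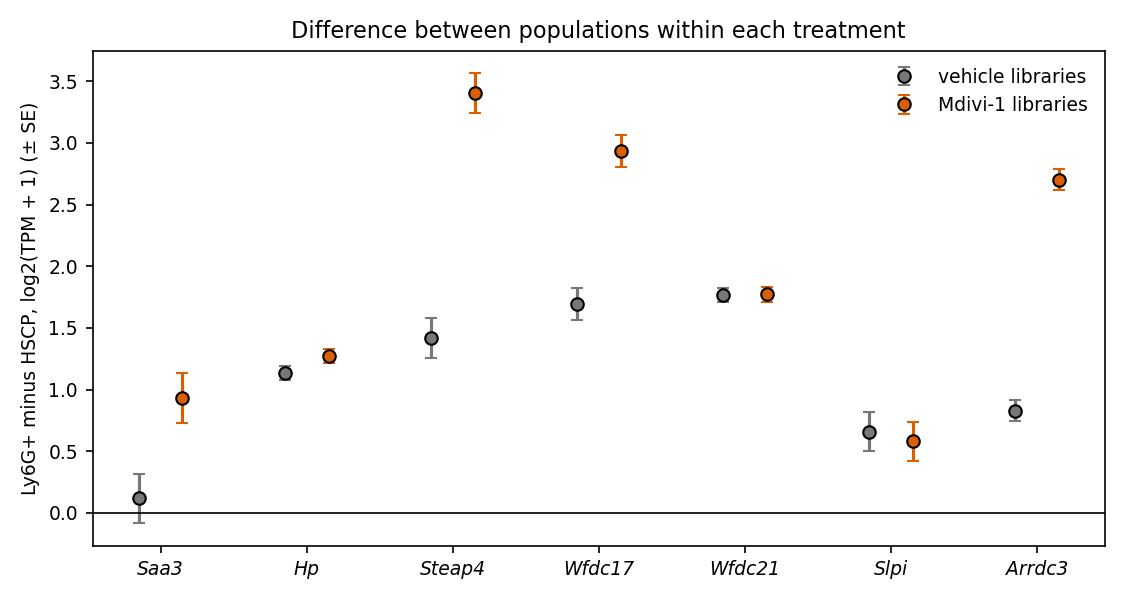
Ly6G+ minus HSCP on the log2(TPM + 1) scale with SE from limma, for vehicle libraries (1 HSCP, 2 Ly6G+) and Mdivi-1 libraries (1 HSCP, 2 Ly6G+). Hp, Wfdc21 and Slpi show alike values in both treatments, while Steap4 (1.42 and 3.40), Wfdc17 (1.70 and 2.93) and Arrdc3 (0.83 and 2.70) lie further apart.

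The sort, the cell mixture and the library totals bear on all these values. Kit was at 72.2 and 64.9 TPM in HSCP and 8.73 to 14.1 in Ly6G+, and Ly6g was at 187 and 90.1 TPM in HSCP and 642 to 840 in Ly6G+. Dnm1l, which encodes Drp1, was at 30.6 and 35.5 TPM in HSCP and 23.0 to 24.6 in Ly6G+. HSCP libraries held neutrophil transcripts: S100a8 and S100a9 made up 7.70% and 7.06% of their TPM, against 19.7% to 20.9% in Ly6G+. In bulk RNA, fewer cells of a type and less RNA per cell cannot be told apart. Between Ly6G+ arms, 15 of 19 late neutrophil maturation markers rose and 1 fell with Mdivi-1, with summed levels of 29390 and 29600 TPM in vehicle and 41550 and 41270 TPM in Mdivi-1 libraries. Of 9 secondary granule markers 1 rose and 5 fell (57670 and 60700 against 48610 and 47090 TPM), and of 8 primary granule markers 0 rose and 2 fell.

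The lists for other cell types differed in how many markers fell in Ly6G+ with Mdivi-1. Of all 11775 genes tested, 2.46% rose and 4.24% fell. These marker counts and those above rest on few libraries, since calls over all genes became few when either vehicle library was left out. B cell markers fell in 9 of 12 cases (558 and 595 against 274 and 267 TPM), megakaryocyte markers in 8 of 9 (275 and 273 against 126 and 109 TPM) and basophil and mast cell markers in 5 of 7 tested (666 and 680 against 379 and 392 TPM). Of 14 monocyte and macrophage markers tested 2 rose and 2 fell (2117 and 2104 against 1824 and 1828 TPM). The dendritic cell list had 1 higher and 4 lower of 9 tested, the erythroid list 5 lower of 11, the stem and progenitor list 3 lower of 9, the T and NK cell list 1 higher of 8, and the eosinophil list 0 of 6. No marker on these lists was at 0 in all Ly6G+ libraries. In HSCP, with 1 library per arm, the late maturation markers summed to 3255 TPM with vehicle and 2658 with Mdivi-1. Other lists were lower with Mdivi-1 there too: megakaryocyte markers went from 354 to 175 TPM, eosinophil markers from 702 to 399, B cell markers from 843 to 516 and dendritic cell markers from 686 to 441. Not all were: primary granule markers went from 14990 to 16080 TPM and erythroid markers from 5305 to 5611. Secondary granule markers stood at 27520 and 26790 TPM. The part of any of these cells in the values of the 7 genes was not tested.

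Genes of the same pathways were read from 7 lists, with the 7 genes themselves left out. The lists were drawn up with earlier results of these data known, so their counts beside all genes are a description. Several of their genes, among them Csf3r, Fpr1, Mmp8, Ltf and Cebpe, are also on the neutrophil marker lists above. In Ly6G+ cells 16 of 114 pathway genes tested rose and 9 fell with Mdivi-1 (20 and 6 with median-of-ratios scaling, 19 and 7 with upper-quartile scaling), where 2.46% of all 11775 genes tested rose and 4.24% fell. Among 13 further acute-phase genes tested 3 rose and 2 fell (median log2 difference 0.10). Cd14, the lipopolysaccharide co-receptor, went from 10.7 ± 1.43 to 32.5 ± 2.79 TPM (log2 difference 1.52, limma adjusted p = 0.00645). The metallothionein gene Mt1 rose by 0.98 and Lrg1, a secreted leucine-rich glycoprotein stored in neutrophil granules, by 0.48 (limma adjusted p = 0.0185 and 0.0325). The serpin gene Serpina3g fell by 0.65 (limma adjusted p = 0.018). Listed at 0 in every library were 6 acute-phase genes, namely Saa1, Saa2, Apcs, Ptx3, Serpina3m and Agt.

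Of 24 further genes of iron and copper handling 4 rose and 3 fell (median 0.020). Fth1, the ferritin heavy chain that stores iron, went from 1190 ± 25.3 to 1799 ± 5.73 TPM (log2 difference 0.60, limma adjusted p = 0.00594). The iron exporter gene Slc40a1 rose by 0.39 and the transferrin gene Trf by 0.38 (limma adjusted p = 0.0378 and 0.0394), while the secondary granule protein gene Ltf, an iron binder, fell by 0.50 (limma adjusted p = 0.0088). Of 16 further WAP and antiprotease genes, 1 rose (Wfdc18, which entered the fit only through its Mdivi-1 libraries) and 1 fell (Serpina3g, which is also on the acute-phase list), with a median of -0.13. The elastase inhibitor gene Serpinb1a stood at 200.3 ± 2.42 and 200.3 ± 5.06 TPM (log2 difference 0.00027), and the cystatin gene Cst3 at 864 ± 32.7 and 764 ± 8.21 TPM (log2 difference -0.18, limma adjusted p = 0.11). Of 16 neutrophil proteases, the enzymes such inhibitors act on among them, 2 rose and 1 fell (median 0.074): the collagenase gene Mmp8 rose by 0.30 and the sheddase gene Adam8 by 0.27, and the urokinase gene Plau fell by 0.80 (limma adjusted p = 0.0305, 0.0466 and 0.0218).

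Of 14 further arrestin and NEDD4 ligase genes 1 rose and 1 fell (median -0.091). Txnip, an alpha-arrestin that binds thioredoxin and limits glucose uptake, went from 384 ± 10.6 to 554 ± 9.24 TPM (log2 difference 0.53, limma adjusted p = 0.0101). Nedd4, a ligase gene, fell by 0.43 (limma adjusted p = 0.0258). The paralog Arrdc4 stood at 18.3 ± 0.671 and 21.4 ± 2.10 TPM (log2 difference 0.21, limma adjusted p = 0.248), and Arrb2, a beta-arrestin gene, at 775 ± 63.9 and 727 ± 5.90 TPM.

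Of 12 receptor genes for serum amyloid A and haptoglobin 1 rose, the formyl peptide receptor gene Fpr1 (0.39, limma adjusted p = 0.0218), and 0 fell. Fpr2, the receptor best known for serum amyloid A, stood at 326 ± 23.9 and 365 ± 2.38 TPM (log2 difference 0.16, limma adjusted p = 0.207). Of 22 receptors and transcription factors of acute-phase signalling 4 rose and 2 fell (median 0.000048). The interleukin-1 receptor subunit gene Il1rap went from 7.74 ± 0.068 to 17.7 ± 0.267 TPM (log2 difference 1.09, limma adjusted p = 0.0062). The leukemia inhibitory factor receptor gene Lifr rose by 0.79 and the G-CSF receptor gene Csf3r by 0.54, while the granulocyte factor gene Cebpe fell by 0.74 (limma adjusted p = 0.00958, 0.0163 and 0.0335).

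**Figure D4:**
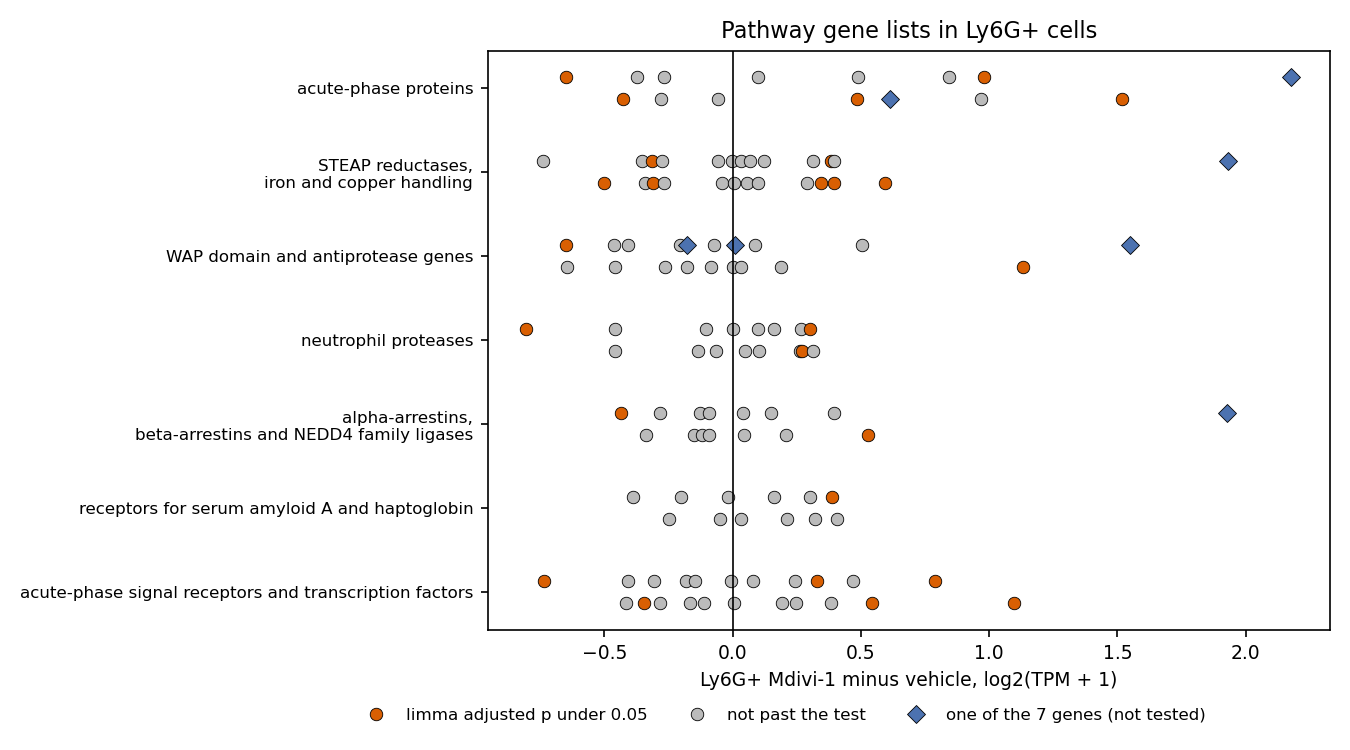
Ly6G+ Mdivi-1 minus vehicle on the log2(TPM + 1) scale for every tested gene of the 7 lists; orange points passed limma at an adjusted p under 0.05, grey points did not, and blue diamonds are the 7 listed genes, shown without a test. Most further genes lie between -0.5 and 0.5, and Saa3, Steap4, Arrdc3 and Wfdc17 lie further right than every other point.

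These list counts rest on few libraries. Without the first or the second Ly6G+ vehicle library, 1 and 0 of the pathway genes rose and 0 and 0 fell. Without the first or the second Mdivi-1 library 7 and 7 rose and 3 and 1 fell, and with a replicate block 7 rose and 4 fell.

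Between populations, 61 of 115 further pathway genes tested were higher in Ly6G+ and 32 lower, beside 22.2% higher and 50.3% lower of all genes. The counts were 75 and 24 with median-of-ratios scaling and 72 and 26 with upper-quartile scaling. They too describe lists drawn up with earlier results known. Some low genes needed libraries of the population where they are high to enter this fit. Orm2, called higher, had a mean of 0.626 TPM in HSCP. Cd163, called lower and on the receptor list, had a mean of 2.465 TPM in HSCP and did not pass the filter among Ly6G+ libraries. The receptor list had 8 higher and 3 lower of 13 (median 1.37), with Fpr1 at 3.40 and Fpr2 at 2.87 (limma adjusted p = 1.33e-05 and 6.92e-06). The antiprotease list was split, with 6 higher and 7 lower of 16 (median -0.11): the metalloprotease inhibitor gene Timp2 was higher by 1.97 and the cystatin gene Cst7 lower (log2 difference -2.72; limma adjusted p = 6.92e-06 for each). Wfdc18, 1 of those 6, entered this fit only through its Ly6G+ Mdivi-1 libraries (log2 difference 1.09, and 0.53 within vehicle libraries). The protease list had 9 higher and 5 lower of 16. Elane, which encodes the elastase that Slpi inhibits, stood at 3162 ± 132 TPM in HSCP and 404 ± 16.4 in Ly6G+ (log2 difference -2.96, limma adjusted p = 4.87e-06), the opposite direction to Slpi. Per 100 Elane transcripts there were 14.1 and 12.4 of Slpi in HSCP and 137 to 173 in Ly6G+.

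The genes with the profiles most like each member over the 6 libraries were found by the root mean square distance of log2(TPM + 1) values, each centred on its own mean, among 8770 other genes with a mean of at least 5 TPM. All share the same libraries, and the distances describe these libraries only. Nearest to Saa3 were Per1 (distance 0.264), Fkbp5 (0.383) and the immunoglobulin segment Igkv1-115 (0.417). Per1 went from 12 to 27.0 TPM between HSCP vehicle and Mdivi-1 and stood at 16.2 and 13.5, then 50.1 and 43.0 TPM in Ly6G+ vehicle and Mdivi-1. Fkbp5 went from 58.9 to 101 TPM in HSCP and stood at 59.9 and 61.1, then 161 and 168 TPM in Ly6G+. Like Saa3, both were higher with Mdivi-1 in both populations and nearly level between HSCP and Ly6G+ with vehicle.

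Steap4, Wfdc17 and Arrdc3 were partly one another's neighbours, which the choice of genes builds in, since 4 of the 6 libraries carry the Ly6G+ difference it used. Nearest to Steap4 were Wfdc17 (0.218), Arrdc3 (0.306) and the immunoglobulin constant region Ighg2b (0.317). Nearest to Wfdc17 were Il13ra1 (0.175), Steap4 (0.218) and Fbxl5 (0.229), and nearest to Arrdc3 were Cd14 (0.197), Ighg2b (0.234) and Steap4 (0.306). Hp lay near Kcnj2 (0.118) and Sla (0.124). Wfdc21 lay nearest to Slco4c1 (0.0511), Fam129a (0.0544) and the lipoxygenase gene Alox5 (0.0612), and Slpi to Rnf25 (0.0458), Kmt2c (0.0555) and Traf5 (0.0565). Wfdc21 and Slpi, whose Ly6G+ arms overlap, had closer neighbours than the other members. The distance builds this in, since it is not scaled to how much a profile varies.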

How the data were processed

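RNA sequencing of 6 libraries in 4 groups was read from 1 table of gene levels, deposited by the authors in TPM (library sums 963240 to 979170). Per the submitters' processing notes, bcl2fastq, CASAVA 1.8, kallisto and the mm10 build were used; the sources used here do not state the annotation, the strand or how transcripts were summed to genes. Read totals cannot be had from TPM, so the depth is unknown and counting error is not given. Of 28987 rows, 27458 were matched to a GENCODE M21 symbol.

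Values were tested as log2 of TPM plus a pseudocount of 1, using limma 3.58.1 (R 4.3.3; trended, robust prior). A gene entered a fit if 2 or more of its libraries reached 1 TPM, which all 7 members did. Residual degrees of freedom were 2 in Ly6G+ and 3 between populations, where treatment was a covariate. P-values were adjusted over all genes tested (Benjamini-Hochberg, threshold 0.05). The procedure was also run on simulated data, with random noise drawn separately for each gene and library. Those data hold no shift in scaling and no cell mixture, so they say nothing on how the calls depend on either. No pair of libraries held identical values (0 genes of 1 TPM or more). The members, gene lists and naming rule (members, Dnm1l, Kit, Ly6g, up to 4 genes per pathway list, first those past the test by size, then the most expressed, and the 3 nearest profiles per member) were chosen with earlier results of these data known. A gene near Hp by profile is not reported here. Alternatives were another pseudocount, no filter, other scalings, leaving out each library, fits within 1 treatment and a replicate block.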

Additional observations from a re-analysis of the deposited data

Results flagged for a closer look

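Steap4 stood higher in both Ly6G+ Mdivi-1 libraries than in both vehicle libraries (12.3 against 2.49 TPM on average), and its HSCP log2 ratio had the opposite sign, -0.055. That ratio comes from 0.309 TPM with vehicle and 0.26 with Mdivi-1, levels too low to give a direction in HSCP. The difference between the populations was not tested.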

How the results depend on the processing

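The population calls of Hp, Steap4, Wfdc17, Wfdc21, Slpi and Arrdc3 held under the 12 alternatives run, and Saa3 was called in 5 of 12. These are not 12 separate checks. The fit within Mdivi-1 libraries and the one without the HSCP vehicle library give the same difference (Saa3 0.93 in both). That difference rests on the Ly6G+ Mdivi-1 levels that bore on the choice of genes, and both fits are among the Saa3 calls. The fit within vehicle libraries and the one without the HSCP Mdivi-1 library also share a difference (Saa3 0.12 in both). For the 7 genes in Ly6G+, 5 to 6 stood above vehicle without overlap in every alternative, and a pseudocount of 0.1 raised the log2 differences of Saa3 to 2.40 and of Steap4 to 2.26, and the population difference of Steap4 from 2.41 to 3.89. With median-of-ratios scaling, calls over all genes became 453 higher and 336 lower with Mdivi-1 (290 and 499 on TPM as deposited) and 4157 higher and 4196 lower between populations (2736 and 6202); the shares higher were 57.4% against 36.8% and 49.8% against 30.6%. Upper-quartile scaling gave shares of 48.2% and 46.5%. Without an expression filter 5 pathway genes rose and 1 fell in Ly6G+, and over all genes 104 and 114. With a replicate block these were 7 and 4, and 152 and 173; same-numbered Ly6G+ libraries share only a number (correlation of their deviations -0.031 across 11775 genes), so the pairing was not used. Leaving out 1 library gave 0 to 7 pathway genes higher and 0 to 3 lower, and over all genes 17 to 116 higher and 5 to 163 lower. In these fits an arm with 1 library is assumed to vary like the other arm. Some signs turned. Among the 7 genes in Ly6G+, with 1 library left out Wfdc21 ranged from -0.024 to 0.046 and Slpi from -0.36 to 0.012. Other genes that turned there were, with median-of-ratios scaling, Elane 0.020, Itgb2 0.065, Timp2 0.0095 and Tlr2 0.034, and with upper-quartile scaling Itgb2 0.035 and Tlr2 0.0037. With 1 library left out, Itgb2 ranged from -0.059 to 0.021, Serpinb1a from -0.025 to 0.026 and Slc39a8 from -0.23 to 0.60. None of these 6 genes was called in Ly6G+ on TPM as deposited. Between populations, Cst3 (called lower) became 0.19 and 0.13 and Serpinb1a 0.26 and 0.20 under the 2 scalings. Cebpe became -0.16 within Mdivi-1 libraries and ranged from -0.16 to 0.39 leaving out 1 library. In HSCP, Wfdc21 became -0.015 and -0.030 under the scalings. The cause of these changes was not tested.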

Other observations

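In HSCP, where each arm is 1 library, 0 of the further pathway genes with a mean of at least 10 TPM passed 2-fold in either direction on any of the 7 lists. The acute-phase list had the largest median log2 ratio among them, 0.29 over 8 genes, with Lrg1 at 0.42, Mt1 at 0.57 and, the other way, Serpina3g at -0.53 (115 and 79.2 TPM with vehicle and Mdivi-1). Mt2, a second metallothionein gene, stood at 14.0 and 26.8 TPM in HSCP vehicle and Mdivi-1 (log2 ratio 0.89), and at 3.15 ± 1.17 and 6.98 ± 0.792 TPM in Ly6G+ (SD, n = 2 each; log2 difference 0.97, limma adjusted p = 0.0742). The receptor list stood at a median of -0.12 over 10 genes in HSCP, with Fpr1 at -0.37, whereas that gene rose in Ly6G+.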
